A study of Mus musculus with 8 samples.

Results

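The Egr transcription factor genes Egr1, Egr2, Egr3 and Egr4 and the corepressor genes Nab1 and Nab2 were followed in RNA from layer IV of the mouse visual cortex. These 6 genes were taken by name from the 34875 genes that the count files name, and for each the most abundant of its transcripts, by total count over all libraries, was used. All 6 passed the filter on low counts, which left 15776 genes for testing. Layer IV was dissected by hand from mice of the B6D2 strain, and total RNA was sequenced. The groups compared were wild type (Otx2 +/+) at postnatal day 100 (P100), Otx2 heterozygous (Otx2 +/-, which the design gives as Otx2 (+/GFP)) at postnatal day 30 (P30), and wild type at P30. Each group had 2 libraries, and the design pooled 4 mice per condition and repeated the experiment in duplicate. Of 8 samples listed, the 2 of heterozygous P100 mice were not analysed here. Nothing in the labels tells whether the duplicates are separate pools. A p-value of the fit over all genes thus covers only the spread between libraries of the same group, estimated over the 3 groups together. That spread may be technical.

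Egr proteins are zinc finger transcription factors that bind GC-rich DNA. Their genes are immediate early genes, switched on by neuronal activity and growth factors through calcium and ERK signalling, which act on SRF with its Elk partners at CArG boxes and on CREB at cAMP response elements (CREs). Nab proteins bind to Egr1, Egr2 and Egr3, though not to Egr4, and hold back their activity in part by recruiting the NuRD chromatin remodelling complex. Nab2 is itself induced by Egr proteins, which gives a negative feedback loop, while Nab1 is generally the more steadily expressed of the pair. In the visual cortex Egr1, also called zif268, is a classic marker of light-driven activity.

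Sequences are shown for Egr2, the member with the largest differences, for Egr4, another induced factor, and for Nab1, the member with no called difference. The RefSeq promoter table (assembly GRCm38.p6, the mm10 build) held 8 promoters for 4 of the 6 genes. The 250 bases before the start of the counted Egr2 transcript (chr10:67537619-67537868, plus strand) and of the Egr4 transcript (chr6:85513590-85513839, minus strand) follow 5′ to 3′. None of these bases lies in an annotated exon of GENCODE M21. Capitals mark a CArG box and the short CRE motif, which is part of the full CRE (TGACG, or CGTCA where the match is on the opposite strand).
Egr2 upstream: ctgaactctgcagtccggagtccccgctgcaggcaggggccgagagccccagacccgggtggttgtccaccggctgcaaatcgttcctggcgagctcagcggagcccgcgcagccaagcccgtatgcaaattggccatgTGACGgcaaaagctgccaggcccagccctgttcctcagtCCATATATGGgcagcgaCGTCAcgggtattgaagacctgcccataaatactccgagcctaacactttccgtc
Egr4 upstream: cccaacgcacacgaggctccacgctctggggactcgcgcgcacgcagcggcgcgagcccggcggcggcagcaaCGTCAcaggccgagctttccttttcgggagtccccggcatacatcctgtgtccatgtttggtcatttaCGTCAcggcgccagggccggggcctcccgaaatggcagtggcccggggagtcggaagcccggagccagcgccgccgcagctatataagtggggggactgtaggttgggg
The Egr2 stretch held a CArG box at -72 to -63 from the start site, with a short CRE motif on each side of it, at -111 to -107 and at -55 to -51. The Egr4 stretch held short CRE motifs at -177 to -173 and at -109 to -105 and no CArG box. The letters GCGTGGGCG, the consensus to which Egr proteins bind, stood in 2 places before the RefSeq start of Nab1, at -141 to -133 and at -109 to -101. All bases of the 29-base stretches around them (chr1:52500571-52500599 and chr1:52500539-52500567, minus strand) lie in annotated exons of GENCODE M21. Both stretches lie downstream of the first base of the counted Nab1 transcript (chr1:52500679). Capitals mark the match, which is on the opposite strand in the first of them.
Nab1 site 1: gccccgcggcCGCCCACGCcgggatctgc
Nab1 site 2: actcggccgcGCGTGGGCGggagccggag
A match to the second Egr consensus, GCGGGGGCG, stood at -38 to -30 from the RefSeq Nab1 start. The Nab2 promoter in the table held none of the letters searched for on either strand. Of 32841 RefSeq promoters of 300 bases, 1.63% held a CArG box, 1.79% a full CRE (TGACGTCA), 20.8% the short motif, 0.612% GCGTGGGCG and 2.91% GCGGGGGCG. A match is a description of the letters and not a bound site.

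Gene-level totals ran from 11007821 to 15296546 counts per library. The summed level of 10 layer 4 and excitatory neuron markers, in CPM (read counts relative to library size, scaled by the trimmed mean of M values, TMM), was 2502 and 2562 in wild type P100, 2518 and 2610 in heterozygous P30 and 2721 and 2894 in wild type P30, so all libraries carried the marker genes of the labelled tissue. One library stood apart: heterozygous P30 replicate 2 held 615 CPM of 7 choroid plexus markers, against 0.731 to 1.54 CPM in the other 5 libraries. All 73 Otx2 counts of the data set came from that library, so that Otx2 itself, listed at 0 in the other 5, does not check the genotype. Both heterozygous libraries held the female-specific RNA Xist at 785 and 925 CPM, against 0.264 to 0.640 CPM in the wild type libraries, so that the sex of the mice and the genotype cannot be told apart. In such bulk tissue, fewer cells of a type and less RNA per cell cannot be told apart either.

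In wild type at P100, set against wild type at P30, all 4 Egr genes and Nab2 were lower and Nab1 was not past the threshold. Egr2 had the largest difference of the 6, at 19.3 times lower, followed by Egr4 and Egr1, which were at 24.8% and 26.1% of their wild type P30 level, and then by Nab2 and Egr3. At the same adjusted p under 0.05, 4.55% of the 15776 genes tested were lower at P100 and 3.0% were higher. Of the 6 genes, 5 were lower and 0 higher, also with DESeq2, with limma and at an unadjusted edgeR p under 0.05. In heterozygous P30 against wild type P30, the 5 genes that were lower were again the 4 Egr genes and Nab2, with 0 higher by any of these tests, where 2.33% of all genes tested were lower and 0.900% higher. Both comparisons use the same wild type P30 libraries, so they are not independent of each other.

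**Figure D1:**
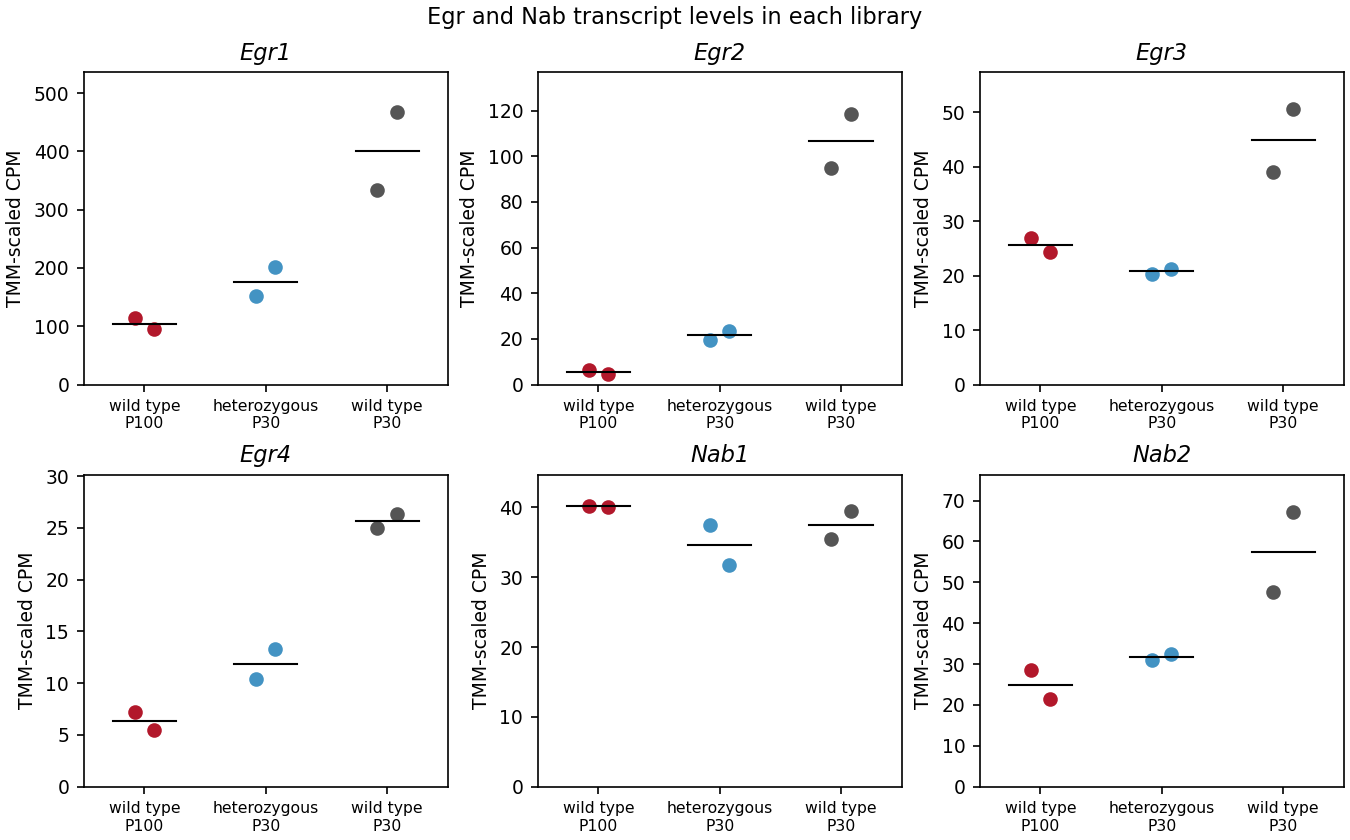
Level of each gene (TMM-scaled CPM, each panel with its own axis from 0) in each library; points are libraries and bars are the means of the 2 libraries in a group. The wild type P30 points lie above the other 4 points for every gene but Nab1, whose 6 points lie between 31.7 and 40.2 CPM.

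Egr1, the member most studied in activity-dependent plasticity, lies on chromosome 18 (mm10 34859823-34864984, plus strand), and its counted transcript has 2 exons. It had 114 and 95.5 CPM in wild type P100, 152 and 201 CPM in heterozygous P30, and 333 and 469 CPM in wild type P30. No library of one group reached into the range of another, and wild type P100 was the lowest. The log2 difference was -1.94 ± 0.15 (SE) for wild type P100 against wild type P30, at an edgeR quasi-likelihood Benjamini-Hochberg adjusted p of 7.09e-06. For heterozygous P30 against wild type P30 it was -1.18 ± 0.15 by the same edgeR test, with an adjusted p of 0.000558. Without heterozygous replicate 2, the library with choroid plexus RNA, this difference was -1.40 (adjusted p = 3.39e-05, edgeR). Within groups, Egr1 differed between replicates by a factor of up to 1.41, in wild type P30.

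Egr2, also called Krox20, is needed in the hindbrain and in myelinating Schwann cells and is an immediate early gene in cortical neurons (chromosome 10, mm10 67535475-67542188, plus strand). It had 6.45 and 4.49 CPM in wild type P100, 19.7 and 23.7 CPM in heterozygous P30, and 94.8 and 119 CPM in wild type P30. These are 89 and 51 counts in wild type P100, against 1037 and 1706 counts in wild type P30, so the low group was still well above the detection floor of 3 counts. The log2 difference between wild type P100 and wild type P30 was -4.27 ± 0.17 (SE), with a 95% interval of -4.63 to -3.91. Egr2 had the smallest p of all 15776 genes in that comparison (adjusted p = 1.14e-08, edgeR quasi-likelihood test with Benjamini-Hochberg adjustment). In heterozygous P30 it was 4.94 times lower than in wild type P30, a log2 difference of -2.30 ± 0.14 (adjusted p = 4.8e-07, edgeR), and -2.44 without heterozygous replicate 2. The 3 groups were thus separated, with heterozygous P30 between the wild type groups.

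Egr3, a factor known from muscle spindles and from memory (chromosome 14, mm10 70077203-70082614, plus strand), is induced by activity like Egr1. It had 27.0 and 24.4 CPM in wild type P100, 20.3 and 21.2 CPM in heterozygous P30, and 39.1 and 50.7 CPM in wild type P30. It was the only member of the 6 with a called difference whose lowest group was heterozygous P30 and not wild type P100. The log2 difference was -0.81 ± 0.13 for wild type P100 against wild type P30 (adjusted p = 0.00197, edgeR) and -1.12 ± 0.13 for heterozygous P30 against wild type P30 (adjusted p = 0.000325, edgeR). Without heterozygous replicate 2 the second value was -1.15. The direct comparison of the lower groups, heterozygous P30 against wild type P100, gave -0.31 with a 95% interval of -0.59 to -0.02. It did not pass the adjustment (adjusted p = 0.218, edgeR).

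Egr4, the family member that lacks the Nab-binding region of the others (chromosome 6, mm10 85511121-85513589, minus strand), had 7.17 and 5.46 CPM in wild type P100, 10.4 and 13.3 CPM in heterozygous P30, and 25.0 and 26.4 CPM in wild type P30. Its groups did not overlap and had the same order as those of Egr1. The differences from wild type P30 were also close to those of Egr1, at -2.01 ± 0.17 for wild type P100 (adjusted p = 1.17e-05, edgeR) and -1.12 ± 0.15 for heterozygous P30 (adjusted p = 0.00096, edgeR). Without heterozygous replicate 2 the heterozygous difference was -1.31 (adjusted p = 0.000661, edgeR).

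Of the corepressors, Nab2, the Egr-inducible one, had 28.6 and 21.4 CPM in wild type P100, 31.0 and 32.4 CPM in heterozygous P30, and 47.5 and 67.1 CPM in wild type P30. All 4 wild type P100 and heterozygous P30 libraries were thus below both wild type P30 libraries. The log2 difference from wild type P30 was -1.20 ± 0.16 in wild type P100 (adjusted p = 0.000587, edgeR) and -0.86 ± 0.15 in heterozygous P30 (adjusted p = 0.00751, edgeR). The heterozygous difference was -0.89 without heterozygous replicate 2, but without wild type P30 replicate 2 it was -0.58 and not past the threshold (adjusted p = 0.0781, edgeR).

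Nab2 lies on chromosome 10 (mm10 127660918-127668568, minus strand), and 35.0% of the exon bases of its counted transcript overlap genes on the opposite strand, Stat6 and Gm16229. Whether reads were counted by strand is not given in the sources used here, so its counts are uncertain to that extent. Stat6 had 12.4 and 11.3 CPM in wild type P100, 11.4 and 11.5 CPM in heterozygous P30 and 10.4 and 10.7 CPM in wild type P30. Gm16229 was at most 0.557 CPM in any library. The part of opposite-strand reads in the Nab2 counts was not tested.

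Nab1 (chromosome 1, mm10 52457294-52500679, minus strand) had 40.2 and 40.1 CPM in wild type P100, 37.5 and 31.7 CPM in heterozygous P30, and 35.5 and 39.5 CPM in wild type P30. The heterozygous and wild type P30 libraries overlapped, and both wild type P100 libraries lay just above the other 4. The difference from wild type P30 was 0.10, with a 95% interval of -0.14 to 0.33, in wild type P100 (adjusted p = 0.656, edgeR) and -0.12, with an interval of -0.35 to 0.12, in heterozygous P30 (adjusted p = 0.629, edgeR). The intervals exclude a fall of the size fitted for any of the other 5 genes in the same comparison. Nab1 was past the threshold under none of 17 other settings in either comparison.

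**Figure D2:**
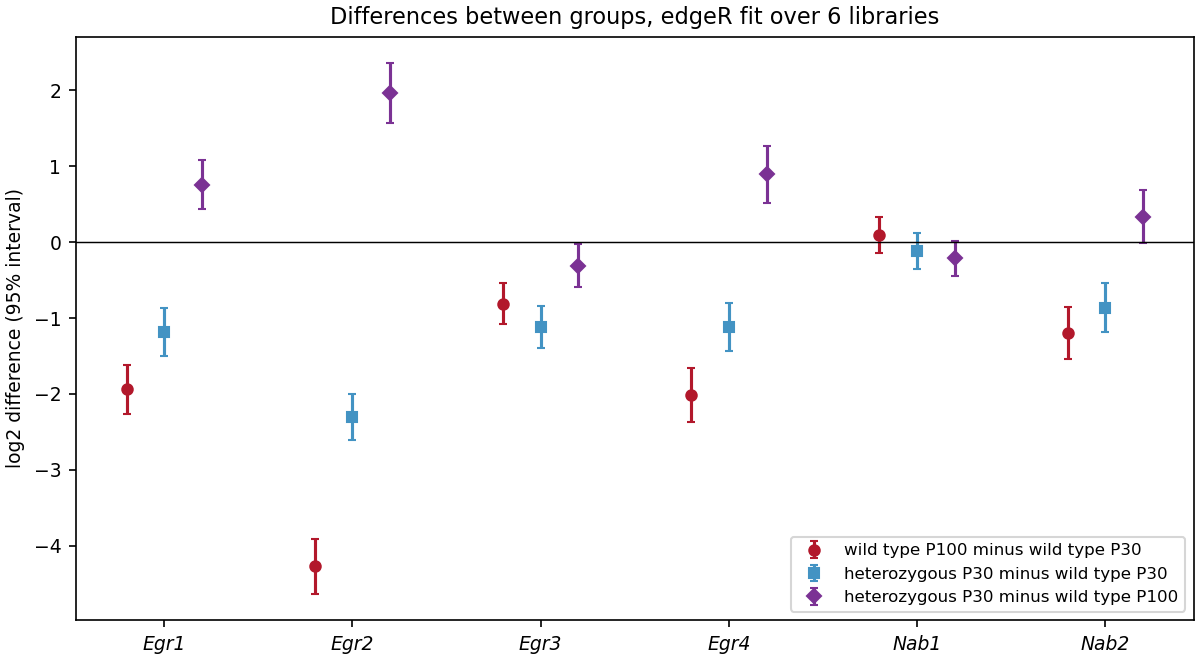
Log2 difference of each gene in the 3 comparisons, from the edgeR fit over 6 libraries, with 95% intervals. The Egr2 interval for wild type P100 against wild type P30, -4.63 to -3.91, lies apart from those of the other 5 genes, and the Nab1 intervals against wild type P30 include 0.

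Heterozygous P30 and wild type P100 differ in age and genotype together, and their comparison shows by how much each gene stood apart in the groups that were both lower than wild type P30. Of the 6 genes, 3 were higher in heterozygous P30 and 0 lower (DESeq2 called 2 higher and 0 lower, limma 3 and 0, and an unadjusted edgeR p under 0.05 would call 3 and 1), where 2.44% of all genes tested were higher and 2.69% lower. Egr2 was 3.91 times higher, a log2 difference of 1.97 ± 0.18 (adjusted p = 5.41e-05, edgeR). Egr1 was higher by 0.76 ± 0.15 on the log2 scale (adjusted p = 0.0104, edgeR) and Egr4 by 0.90 ± 0.18 (adjusted p = 0.00955, edgeR). Without heterozygous replicate 2, only Egr2 of the 6 was past the threshold, at 1.83, while Egr1 was 0.54 (adjusted p = 0.0652, edgeR) and Egr4 0.71 (adjusted p = 0.081, edgeR). Without wild type P100 replicate 2, likewise, Egr1 was 0.64 (adjusted p = 0.133, edgeR) and Egr4 0.72 (adjusted p = 0.0994, edgeR). The values for Nab2, 0.34 (adjusted p = 0.274, edgeR), and Nab1, -0.21 (adjusted p = 0.299, edgeR), did not pass.

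The sizes of the differences were unequal among the members, and a ratio to Egr1 within each library gives this free of any scaling between libraries. The ratio of Egr2 to Egr1 counts was 0.0568 and 0.0470 in wild type P100, 0.129 and 0.117 in heterozygous P30, and 0.284 and 0.253 in wild type P30. This ratio was thus 5.19 times lower in wild type P100 and 2.18 times lower in heterozygous P30 than in wild type P30, and it separated all 3 groups. The two-sided exact permutation p was 0.333 in each case, the smallest that 2 libraries against 2 allow, so no ratio could pass 0.05. The 95% intervals of the fitted differences of Egr2 (-4.63 to -3.91) and Egr1 (-2.27 to -1.61) in wild type P100 against wild type P30 were separate.

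The fitted difference of Egr3 between wild type P100 and wild type P30 was smaller than that of Egr1, and its interval of -1.08 to -0.54 was separate from that of Egr1. Its ratio to Egr1 was 0.238 and 0.255 in wild type P100, 0.134 and 0.105 in heterozygous P30, and 0.117 and 0.108 in wild type P30. The ratio was 2.19 times higher in wild type P100 than in wild type P30 (exact permutation p = 0.333), while the heterozygous libraries overlapped those of wild type P30 (exact permutation p = 1). The ratio of Egr4 to Egr1 stayed between 0.0563 and 0.0748 in all 6 libraries and its groups overlapped in both comparisons with wild type P30. The ratio of Nab2 to Egr1 was 0.252 and 0.224 in wild type P100, 0.204 and 0.161 in heterozygous P30, and 0.143 and 0.143 in wild type P30. There were thus more Nab2 counts for each Egr1 count in both lower groups than in wild type P30 (exact permutation p = 0.333 for each). The log2 ratio was higher by 0.73 in wild type P100 and by 0.34 in heterozygous P30, the latter 0.17 without heterozygous replicate 1. In heterozygous against wild type P30, the fitted intervals of Nab2 (-1.19 to -0.53) and Egr1 (-1.50 to -0.87) overlapped. For Nab1, the log2 ratio to Egr1 was higher by 2.03 in wild type P100 and by 1.06 in heterozygous P30 than in wild type P30, without overlap (exact permutation p = 0.333 for each).

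**Figure D3:**
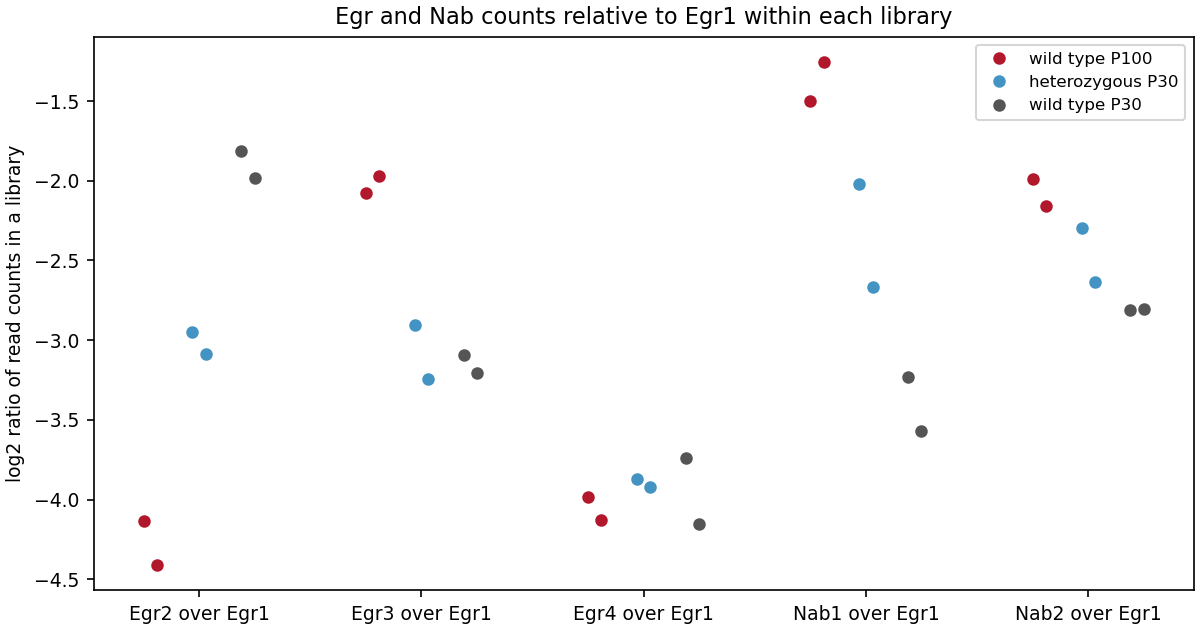
Log2 ratio of the read counts of each gene to those of Egr1 in the same library; each point is 1 library, and the groups stand left to right as in the legend. Egr2 over Egr1 runs from -4.41 to -1.81 over the 6 libraries, while Egr4 over Egr1 stays between -4.15 and -3.74.

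Divided by the exon length of the counted transcript in GENCODE M21, so that genes can be set against each other, the levels changed order between the groups. The annotation release used for counting is not given in the sources used here, so these lengths may differ from those the authors used. In wild type P100, Egr1 had 23.3 ± 2.8 CPM per kb (SD, n = 2), Egr3 17.0 ± 1.2, Nab1 10.4 ± 0.026, Nab2 9.69 ± 2.0, Egr4 2.94 ± 0.56 and Egr2 1.85 ± 0.47. In heterozygous P30, Egr1 had 39.4 ± 7.8 CPM per kb, Egr3 13.8 ± 0.43, Nab2 12.3 ± 0.40, Nab1 8.93 ± 1.1, Egr2 7.30 ± 0.95 and Egr4 5.51 ± 0.95. In wild type P30, Egr1 had 89.4 ± 21 CPM per kb, Egr2 36.0 ± 5.7, Egr3 29.7 ± 5.4, Nab2 22.2 ± 5.4, Egr4 11.9 ± 0.47 and Nab1 9.68 ± 0.74. On this scale of levels per length Egr2 came next after Egr1 in wild type P30 and was the lowest in wild type P100, and Nab1 was the lowest in wild type P30 and above Egr2 and Egr4 in both other groups. Neighbours in these orders whose means ± SD overlapped, so that their order is not firm, were Nab1 and Nab2 in wild type P100, Nab1 and Egr2 as well as Egr2 and Egr4 in heterozygous P30, and Egr2 and Egr3 as well as Egr3 and Nab2 in wild type P30.

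Other transcripts of the same genes gave values close to these. The files list 20 transcript rows for the 6 genes, and rows of a gene share reads, as their counts show. All 7 Egr2 rows were lower, by log2 differences between -4.46 and -4.21 in wild type P100 and between -2.47 and -2.20 in heterozygous P30, both against wild type P30. Both Egr1 rows held the same counts in every library. The 4 Nab2 rows ranged from -1.49 to -1.20 in wild type P100 and from -1.04 to -0.85 in heterozygous P30. None of the 5 Nab1 rows passed an adjusted p of 0.05 in the edgeR test over 62163 transcript rows.

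**Figure D4:**
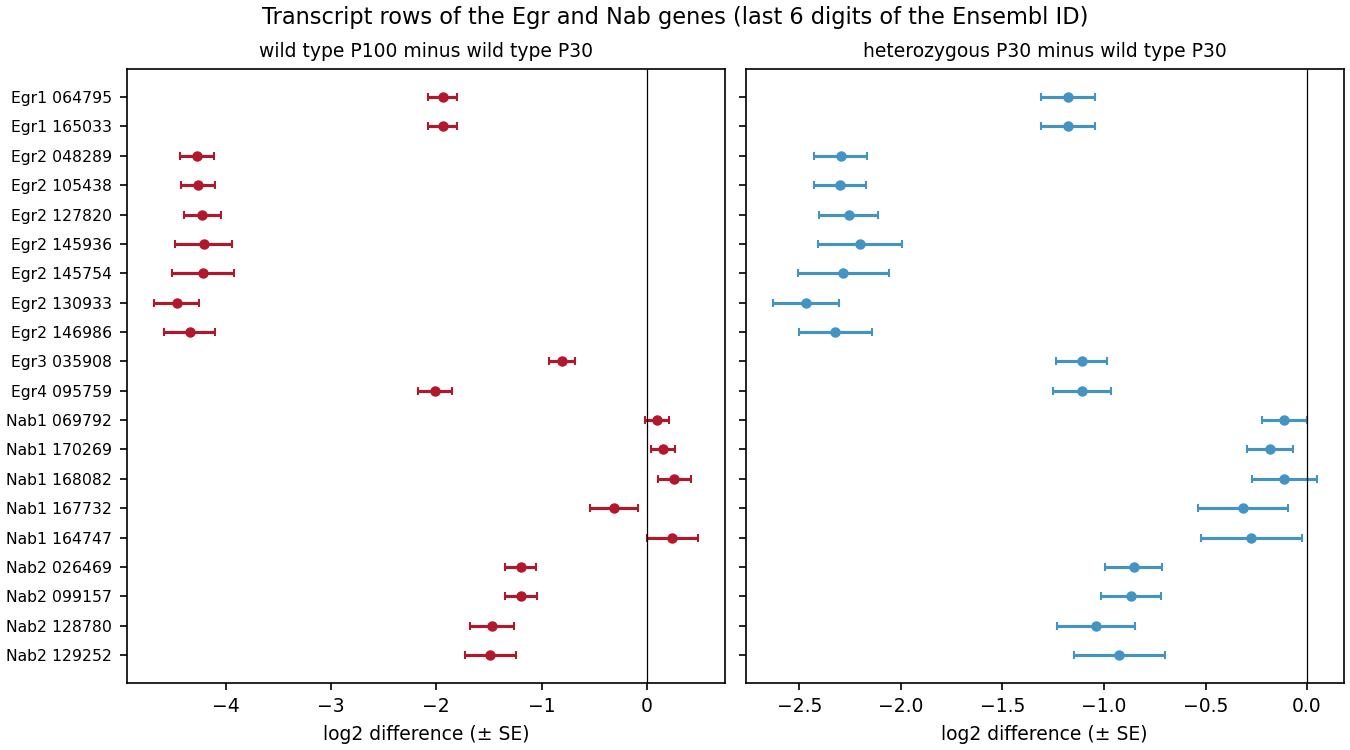
Log2 difference with its standard error for each of the 20 transcript rows, named by gene and the last digits of the Ensembl identifier, in wild type P100 (left) and heterozygous P30 (right), both against wild type P30. Rows of one gene lie together, and the Nab1 rows scatter around 0 in wild type P100.

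The authors' deposited table gives a value per transcript, and for the counted transcript of each gene in wild type P100 over wild type P30 the log2 fold change was -1.94 for Egr1 (adjusted p = 0.000502), -4.28 for Egr2 (adjusted p = 3.69e-28) and -2.02 for Egr4 (adjusted p = 5.77e-20). Egr3, at -0.80 with an adjusted p of 0.0599, and Nab2, at -1.20 with an adjusted p of 0.0813, missed 0.05 in the authors' deposited table. Other Nab2 transcripts passed there, at -1.48 (adjusted p = 0.00013) and -1.50 (adjusted p = 0.0237) in the authors' deposited table. They are short, with 400 and 386 exon bases, of which 100% and 79.3% overlap genes on the opposite strand. For heterozygous P30 over wild type P30, the authors' deposited table gave -1.18 for Egr1 (adjusted p = 0.0103), -2.30 for Egr2 (adjusted p = 2.42e-10), -1.11 for Egr3 (adjusted p = 0.000742) and -1.11 for Egr4 (adjusted p = 3.67e-08). Nab2, at -0.85, had an adjusted p of 0.128 for its counted transcript in the authors' deposited table, while the Nab2 transcript of 400 bases passed, at -1.04 (adjusted p = 0.00348), and Nab1 had an adjusted p of 1 in both comparisons. For the counted transcripts the sizes were thus alike in both sources, and the calls differed for Nab2 in both comparisons and for Egr3 in wild type P100.

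Replicates of a group also differed for the Egr genes together. All 4 Egr genes were higher in replicate 2 than in replicate 1 in heterozygous P30 and in wild type P30, and 0 of 4 were in wild type P100. Over all genes tested the share higher in replicate 2 was 49.8% to 50.2%. The replicate 2 to replicate 1 ratios of the Egr genes were 0.697 to 0.905 in wild type P100, 1.05 to 1.33 in heterozygous P30 and 1.06 to 1.41 in wild type P30. These within-group factors were smaller than the 2.17-fold to 4.94-fold differences of the Egr genes between heterozygous and wild type P30. Some other called differences lay nearer to such factors. Nab2 was 1.82 times lower in heterozygous P30 than in wild type P30, and its replicate 2 to replicate 1 ratio was 1.41 in wild type P30. Egr3 was 1.75 times lower in wild type P100 than in wild type P30. Egr1 and Egr4 were 1.69 and 1.86 times higher in heterozygous P30 than in wild type P100.

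The genes most like each member were found by the Euclidean distance between log2(CPM + 0.5) profiles, centred on their mean over the 6 libraries, among 12764 named genes, with smaller values closer. Egr4 was the nearest gene to Egr1 and Egr1 the nearest to Egr4, at a distance of 0.327. After it, Egr1 lay nearest to Kdm6b, an H3K27 demethylase (0.468), and Gadd45g, a growth arrest and demethylation factor (0.580). Egr4 lay nearest next to Gadd45g (0.446) and Cnksr3 (0.491). For Egr2 the distances were larger, its nearest genes being Tmem252 (1.619), Fos, an AP-1 subunit (1.631), and Cyr61, a matricellular protein (1.731). Profiles were not scaled to equal spread, so a member with large differences lies farther from most genes. Egr3 lay nearest to Map3k14, the kinase NIK (0.183), Rnf39 (0.273) and Ifi44 (0.297). Nab2 lay nearest to the cochaperone gene Dnajb5 (0.120), the methylcytosine dioxygenase gene Tet3 (0.181) and Mdga1 (0.241), and Nab1 to Prdm11, Tesc and Cactin (0.092 to 0.099). The 6 profiles share their libraries with the group differences above, so these distances are a description.

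Upstream of the Egr genes, the transcripts of the SRF, ERK and CREB pathway were mostly not past the threshold. Of 28 of its 29 listed genes that were tested, 2 fell and 0 rose in wild type P100, a share near the 4.55% of all genes tested that were lower, with a median log2 difference of -0.04 against 0.0006 for all genes tested. The genes that fell were Srf, the CArG box factor itself (log2 difference -0.45, adjusted p = 0.0265, edgeR) and Camk4, a nuclear calcium-dependent kinase that acts on CREB (-0.37, adjusted p = 0.0103, edgeR). In heterozygous P30 against wild type P30, 3 fell and 0 rose, where 2.33% of all genes tested were lower, with a median of -0.06. They were Crem, a CREB relative with inducible repressor forms (-0.72, adjusted p = 0.0101, edgeR), Camk4 (-0.40, adjusted p = 0.0118, edgeR) and Rps6ka3, the ERK-activated kinase RSK2 (-0.36, adjusted p = 0.0149, edgeR). In heterozygous P30 against wild type P100, 1 rose and 3 fell, where 2.44% of all genes tested were higher and 2.69% lower. DESeq2 and limma also called 0 of the 28 pathway genes higher in either comparison with wild type P30. An unadjusted edgeR p under 0.05 would call 2 of them higher in each.

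The NuRD subunits that Nab proteins recruit were mostly not past the threshold. Of 13, 2 fell and 0 rose in wild type P100 against wild type P30, where 4.55% of all genes tested were lower, and DESeq2 called 1 lower and limma 2. Of the same 13, 0 were called in heterozygous P30 against wild type P30 by edgeR, DESeq2 or limma, with 2 lower at an unadjusted edgeR p under 0.05. Over all genes tested, 2.33% were lower and 0.900% higher there, so 0 of 13 is near those shares. The remodelling ATPase gene Chd3 had 418 and 339 CPM in wild type P100, against 549.5 and 529 CPM in wild type P30, a log2 difference of -0.51 (adjusted p = 0.00346, edgeR). The methyl-CpG-binding family gene Mbd3 also fell in that comparison (log2 difference -0.36, adjusted p = 0.0457, edgeR). Of 5 binding partners and modifiers of Egr proteins, 0 changed in either comparison with wild type P30 by edgeR, DESeq2 or limma, and 1 was lower in wild type P100 at an unadjusted edgeR p under 0.05. Tet1, a methylcytosine dioxygenase reported to bind Egr1, was higher in heterozygous P30 than in wild type P100 (log2 difference 0.47, adjusted p = 0.00838, edgeR).

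Genes reported elsewhere as Egr targets were lower or did not pass in both comparisons with wild type P30. Of 20 tested of 23 listed, 9 fell and 0 rose in wild type P100, where 4.55% of all genes tested were lower, with a median log2 difference of -0.32. In heterozygous P30, 3 fell and 0 rose, where 2.33% of all genes tested were lower, with a median of -0.12. DESeq2 called 7 and 3 lower and limma 9 and 4, with 0 higher, and an unadjusted edgeR p under 0.05 would call 0 and 2 higher. Arc, a synaptic regulator of AMPA receptors that is itself an immediate early gene, had 246 and 279.6 CPM in wild type P100, 143 and 285 CPM in heterozygous P30, and 1214 and 1574 CPM in wild type P30. Arc fell by 2.41 on the log2 scale in wild type P100 (adjusted p = 3.07e-05, edgeR) and was at -2.70 on the same scale in heterozygous P30 (adjusted p = 1.54e-05, edgeR). The clock gene Per1 was 2.69 and 2.11 times lower in these comparisons (adjusted p = 8.88e-05 and 0.000976, edgeR), and F3, the coagulation starter tissue factor, was 1.43 and 1.48 times lower (adjusted p = 0.0119 and 0.0101, edgeR). The matrix gene Fn1 fell by 0.51 on the log2 scale in wild type P100 (adjusted p = 0.0124, edgeR), while its value in heterozygous P30 was -0.23 (adjusted p = 0.267, edgeR).

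Egr2 drives myelin genes in Schwann cells of peripheral nerve, so a list of its targets there was read as well. Of 9 tested of 11 listed, 4 fell and 0 rose in both comparisons with wild type P30, where 4.55% of all genes tested were lower in wild type P100 and 2.33% in heterozygous P30, with Mbp and Mag, which encode myelin proteins, among those that fell. Mag had 35.0 and 32.5 CPM in wild type P100, 46.9 and 46.8 CPM in heterozygous P30, and 73.4 and 62.5 CPM in wild type P30. These myelin genes are also made by oligodendrocytes, whose 6 markers summed to 1034 and 874 CPM in wild type P100, 1439 and 1410 CPM in heterozygous P30, and 2038 and 1896 CPM in wild type P30. All 6 oligodendrocyte markers, Mag among them, fell in both comparisons. The 6 Schwann cell markers summed to 2.75 to 4.04 CPM per library, with Pmp2 at 0 in 5 of the 6 libraries. The part of the oligodendrocyte level in these differences was not tested.

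Other immediate early families gave the scale of the change. Of 6 AP-1 genes tested, 5 fell and 0 rose in both comparisons with wild type P30 (4.55% of all genes tested were lower in wild type P100 and 2.33% in heterozygous P30), with median log2 differences of -1.50 in wild type P100 and -1.62 in heterozygous P30. Fos had 19.3 and 32.8 CPM in wild type P100, 37.9 and 46.9 CPM in heterozygous P30, and 192 and 209.7 CPM in wild type P30. All 3 Nr4a orphan receptor genes fell in both comparisons, against the same shares of all genes, with medians of -2.33 in wild type P100 and -1.40 in heterozygous P30. Egr2, at -4.27 in wild type P100, had a lower value than any tested gene of those families, and at -2.30 in heterozygous P30 it was close to Fos (-2.24). DESeq2, limma and an unadjusted edgeR p under 0.05 likewise gave 0 higher among the Schwann cell targets, the AP-1 genes and the Nr4a genes in both comparisons with wild type P30. Zinc finger factors that share the GC-rich site, such as Sp1 and Sp3, are no immediate early genes. Of 6 tested, 0 passed the threshold in any of the 3 comparisons by edgeR, DESeq2 or limma. Over all genes tested, edgeR called 0.900% to 4.55% in a given direction, so 0 of 6 is near that share. The median log2 differences of these factors were 0.19 in wild type P100 and 0.03 in heterozygous P30. At an unadjusted edgeR p under 0.05, 2 of the 6 were higher and 1 lower in wild type P100, and 0 passed in heterozygous P30.

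**Figure D5:**
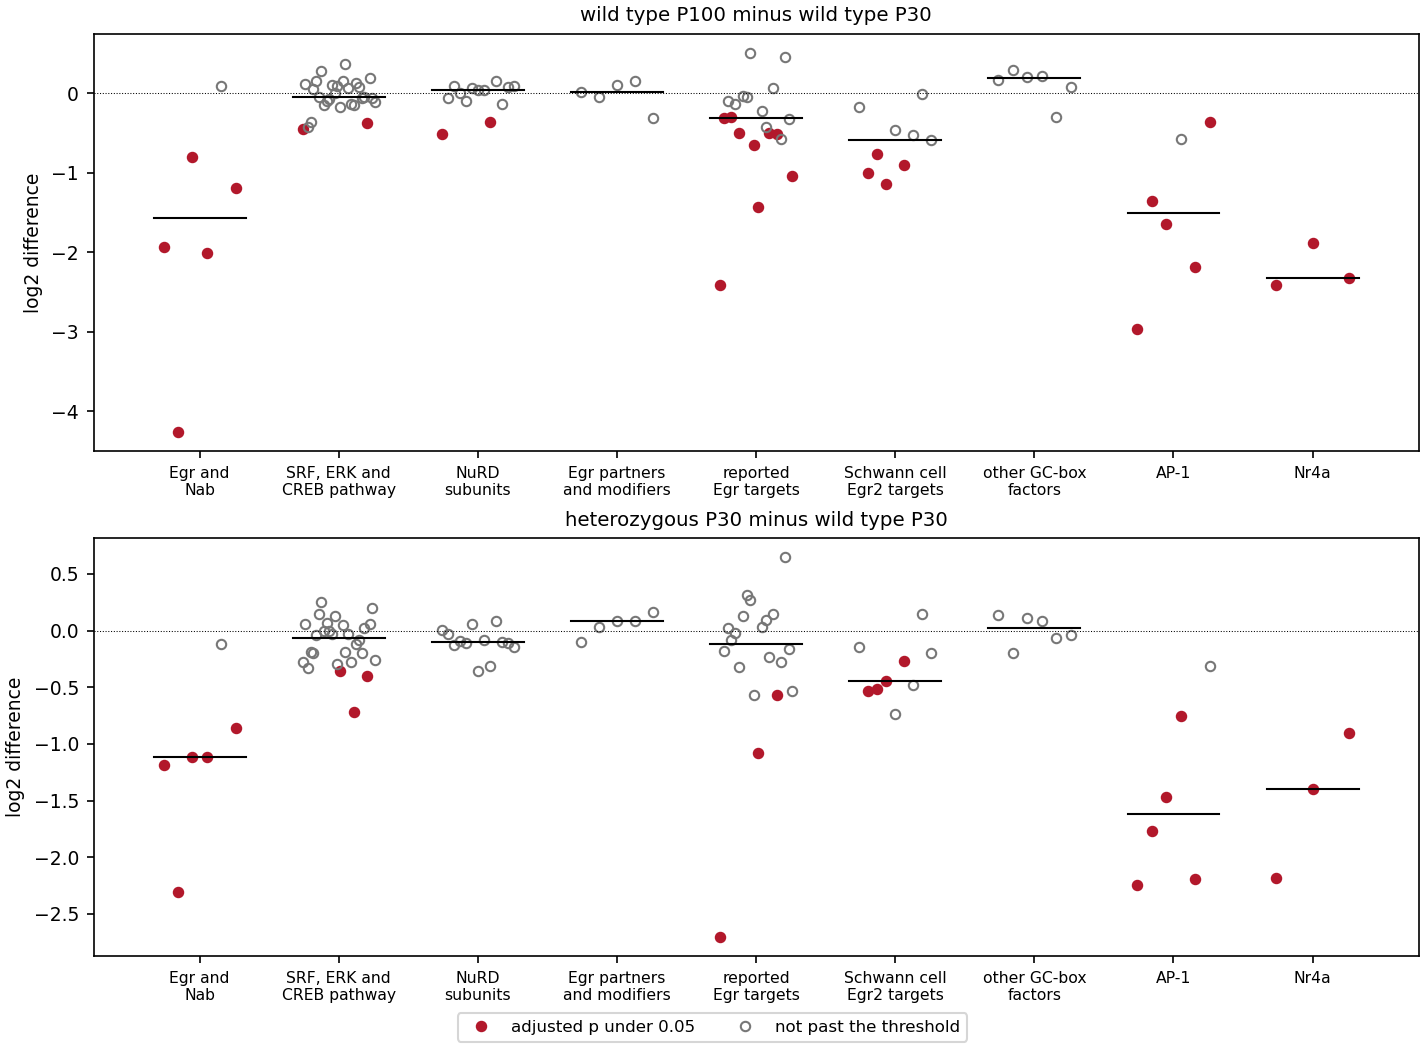
Log2 differences from wild type P30 of the Egr and Nab genes and of the gene lists described, in wild type P100 (top) and heterozygous P30 (bottom); each point is a gene, filled where the edgeR adjusted p is under 0.05, and bars are list medians. The Egr and Nab, AP-1 and Nr4a genes lie mostly below 0, whereas the pathway, NuRD and GC-box lists centre near 0.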

How the data were processed

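Total RNA of hand-dissected layer IV was sequenced, per the labels' protocols. The deposited files hold read counts for 95533 Ensembl transcripts, per the file headers. Bowtie, HTSeq, DESeq 1.8.3 and the build mm10 are listed, with no role, in the submitters' processing notes, while their settings, the annotation release and strand use are not given in the sources used here. Tables of comparisons deposited by the authors give a log2 fold change and an adjusted p-value per transcript and were used only where named.

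Each gene name was given the transcript with the highest total count; 9669 transcripts without a name, holding 13.96% of counts, were left out. Counts were tested with edgeR 4.0.16 in R 4.3.3 (TMM scaling, filterByExpr with a minimum count of 10, quasi-likelihood test, 3 groups, 6 libraries, 3 residual degrees of freedom before moderation) with Benjamini-Hochberg adjustment over 15776 genes and a threshold of 0.05. A standard error is the log2 difference divided by the square root of its F statistic. Ratios within a library were compared by exact permutation. Alternatives included other scalings and filters, DESeq2 1.42.0, limma 3.58.1, summed transcripts, a replicate block and leaving out each library. The fit was tested on simulated data, in which more of the calls than the threshold allows fell on unchanged genes and small changes were recovered only in part. Detection floors are 3 counts and cover counting error only.

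All 6 members are named; from each list, up to 4 genes past the threshold with the smallest p; and for each member the 3 nearest genes. Stat6, Gm16229, Otx2 and Xist are named as checks. Some list genes that this rule would name are not reported here. The members and lists were chosen with earlier results of these data known. Promoter letters were searched on both strands of RefSeq promoters running from 250 bases before the start.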

Additional observations from a re-analysis of the deposited data

How the results depend on the processing

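Depth limits the Egr and Nab values little, since their lowest count in any library was 51; the number of libraries limits them more. Over 17 alternatives, 299 values of the 6 genes kept their direction and side of the threshold and 7 kept only their direction. All 75 ratio values moved by less than the spread between replicates. For the values without 1 library this outcome was fixed in advance. Leaving out 1 of 2 libraries cannot move a ratio difference by more than that spread, so nothing is concluded from it. Even so, 3 values near 0 changed sign without 1 library. Egr3 over Egr1, 0.08 on the log2 scale in heterozygous against wild type P30, was -0.10 without heterozygous replicate 1. Egr4 over Egr1 was 0.10 without wild type P30 replicate 1, against -0.11, in wild type P100 against wild type P30, and -0.15 without wild type P30 replicate 2, against 0.05, in heterozygous against wild type P30. DESeq2 gave Egr1 a log2 difference of 0.757 (adjusted p = 0.102) in heterozygous P30 against wild type P100. Leaving out 1 library gave -1.08 to -0.58 for Nab2 in heterozygous against wild type P30. In heterozygous P30 against wild type P100 it gave 0.54 to 0.95 for Egr1 and 0.71 to 1.12 for Egr4, and 1 to 3 of the 6 genes were called higher, with 1 without wild type P100 replicate 2 and 1 without heterozygous replicate 2. A group left with 1 library is assumed to vary like the others. Fitting every transcript row as a feature was chosen after seeing the data and changed no call of the 6 genes.

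Counts over all genes moved more. In wild type P100 against wild type P30, 473 genes were higher, against 804 with no filter on low counts, 294 with DESeq2, 296 with counts summed over transcripts and 117 to 415 without 1 library; 718 were lower, against 232 to 661 without 1 library. In heterozygous against wild type P30, 142 were higher, against 410 with no filter, 71 with summed counts and 52 to 115 without 1 library; 368 were lower, against 698, 191 and 128 to 373 under the same settings. In heterozygous P30 against wild type P100, 385 were higher, against 757, 241 and 120 to 466, and 424 were lower, against 724, 255 and 134 to 468. The cause was not tested.

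The main fit did not pair samples by replicate number. Over 15776 genes, the replicate differences correlated at -0.001 between wild type P30 and wild type P100 and at 0.001 between wild type P100 and heterozygous P30. Between wild type P30 and heterozygous P30 the correlation was 0.118. Whether replicate numbers pair the P30 samples was not tested. With the replicate number as a block, 525 genes were higher and 793 lower in wild type P100 against wild type P30, 189 higher and 446 lower in heterozygous against wild type P30, and 479 higher and 509 lower in heterozygous P30 against wild type P100. Under the block 5, 5 and 3 of the 6 genes were called, as without it, and Egr2 was -4.25 in wild type P100 against wild type P30.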
